A study of Caenorhabditis elegans with 2 samples.

Results

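The 10 genes described here encode the dosage compensation complex of Caenorhabditis elegans, namely sdc-1, sdc-2, sdc-3, dpy-21, dpy-26, dpy-27, dpy-28, dpy-30, mix-1 and capg-1. They were taken by name from the WBcel235 annotation (build ce11, Ensembl release 115), which holds 19973 protein-coding genes on 6 chromosomes, and all 10 were found. For each gene, every deposited peak with its summit between 1000 bp upstream of the gene and the gene's end was collected. A peak was marked as lying at a 5′ end when its summit was within 1000 bp upstream to 500 bp downstream of the first base of a protein-coding transcript.

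The peaks came from chromatin immunoprecipitation and sequencing (ChIP-seq) of SWSN-7, a subunit of the PBAF form of the SWI/SNF chromatin remodelling complexes. Whole L1 hermaphrodites of strain OP512 were used, 6 hours after synchronization by starvation following bleaching. The strain carries unc-119(tm4063) III and the transgene wgIs512, which gives SWSN-7 fused at its C terminus to GFP-FLAG, and an antibody against GFP was used. The only group held 2 biological replicates, so nothing could be compared between groups and no test was made. Cell types cannot be told apart in chromatin of whole animals, the tagged protein came from a transgene, and the lists hold no expression values against which the stage could be checked. Read depth is unknown.

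The dosage compensation complex binds both X chromosomes of hermaphrodites and lowers transcription from them to the level of the single X of males. SDC-2, made only in hermaphrodites, starts its assembly on the X together with SDC-3 and DPY-30, and SDC-1 is a further zinc finger protein of the complex. DPY-27, MIX-1, DPY-26, DPY-28 and CAPG-1 form a condensin, a ring-shaped machine that folds chromosomes. In it DPY-27 takes the place of SMC-4, and the other subunits also serve in the condensins of mitosis and meiosis. DPY-21 demethylates lysine 20 of histone H4 on the X, and DPY-30 is also a subunit of the SET1/MLL methyltransferases of histone H3 lysine 4.

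Of the 10 genes, 6 had a peak of the authors' IDR list at a 5′ end, namely sdc-1, sdc-2, dpy-26, dpy-27, dpy-30 and mix-1. The IDR list holds the regions that the authors kept by a threshold on the irreproducible discovery rate. Of all protein-coding genes, 15.9% had such a peak. The DNA at the 4 strongest of the 6 is shown first, because it is the sequence on which the signal was centred. Each line is 200 bases around the summit, 5′ to 3′ on the strand of the gene, from the RefSeq sequence of build ce11. Capitals mark the letters GAGAG, which read CTCTC where they are on the other strand. The positions are chrIII:3820256-3820455 (minus strand) for dpy-27, chrV:12191041-12191240 (plus) for dpy-30, chrX:11522154-11522353 (plus) for sdc-2 and chrII:10824147-10824346 (plus) for mix-1.
dpy-27: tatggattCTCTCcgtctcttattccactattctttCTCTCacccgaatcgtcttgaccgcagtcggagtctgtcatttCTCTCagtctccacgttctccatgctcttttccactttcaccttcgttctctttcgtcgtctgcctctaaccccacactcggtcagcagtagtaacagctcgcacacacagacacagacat
dpy-30: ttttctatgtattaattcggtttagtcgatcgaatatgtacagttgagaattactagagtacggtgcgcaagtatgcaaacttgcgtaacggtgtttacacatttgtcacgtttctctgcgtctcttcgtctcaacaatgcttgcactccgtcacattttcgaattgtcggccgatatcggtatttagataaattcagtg
sdc-2: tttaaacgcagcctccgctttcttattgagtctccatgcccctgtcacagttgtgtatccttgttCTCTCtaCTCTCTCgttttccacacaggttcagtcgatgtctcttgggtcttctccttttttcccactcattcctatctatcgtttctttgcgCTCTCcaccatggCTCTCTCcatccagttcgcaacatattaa
mix-1: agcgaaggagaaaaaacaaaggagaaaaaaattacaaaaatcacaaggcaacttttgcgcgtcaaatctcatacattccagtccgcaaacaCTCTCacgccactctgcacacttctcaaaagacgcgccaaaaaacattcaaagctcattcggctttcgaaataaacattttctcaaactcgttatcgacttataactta

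GAGAG was found in the windows of 5 of these 6 genes. There were 6 matches at sdc-2, 4 at sdc-1, 3 at dpy-27, 1 at dpy-26 and 1 at mix-1, with overlapping matches counted separately. The window of dpy-30 had none. These letters occurred in 64.1% of the 4087 IDR windows of the same length and in 30.4% of 29304 windows of 200 bases just upstream of transcript 5′ ends. A further 7 motifs were searched on both strands in the same windows. GATAA was in 3 of the 6 windows (28.4% of IDR windows, 44.5% of upstream windows) and TTTTTT in 3 (49.3% and 69.6%). None of the 6 windows held GCGCAGGG, the core letters of the motif known from recruitment sites of the complex on the X (0.636% of IDR windows, 0.0648% of upstream windows). The other motifs, also in none of the 6, were CACGTG (7.32% and 4.05%), TATAAA (12.8% and 28.2%), TTCGCGC (4.33% and 1.47%) and TTTCAG (16.1% and 39%). A match here describes letters and not a site. The GC content was 49% at dpy-27 and sdc-1, 46% at sdc-2, 40.5% at dpy-26, 40% at dpy-30 and 38.5% at mix-1. The median was 44% over the IDR windows and 33.5% over the upstream windows.

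The strengths below are the authors' signal value, the peak caller's measure of enrichment. Each list has its own scale. Values of the IDR and pooled lists are therefore not set against those of a replicate list, and a ratio between the replicates is read only against the ratios of the other entries. In the IDR list it ran from 88.4 to 5142.4 with a median of 183.3. The 6 genes had a median of 227.9 (120.6 to 307.6) at their strongest 5′ peak, and the 3179 genes called in the same way had a median of 223.1 with quartiles of 134.3 and 391.6. The 6 peaks sat in the middle range of the list and not at its top.

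**Figure D1:**
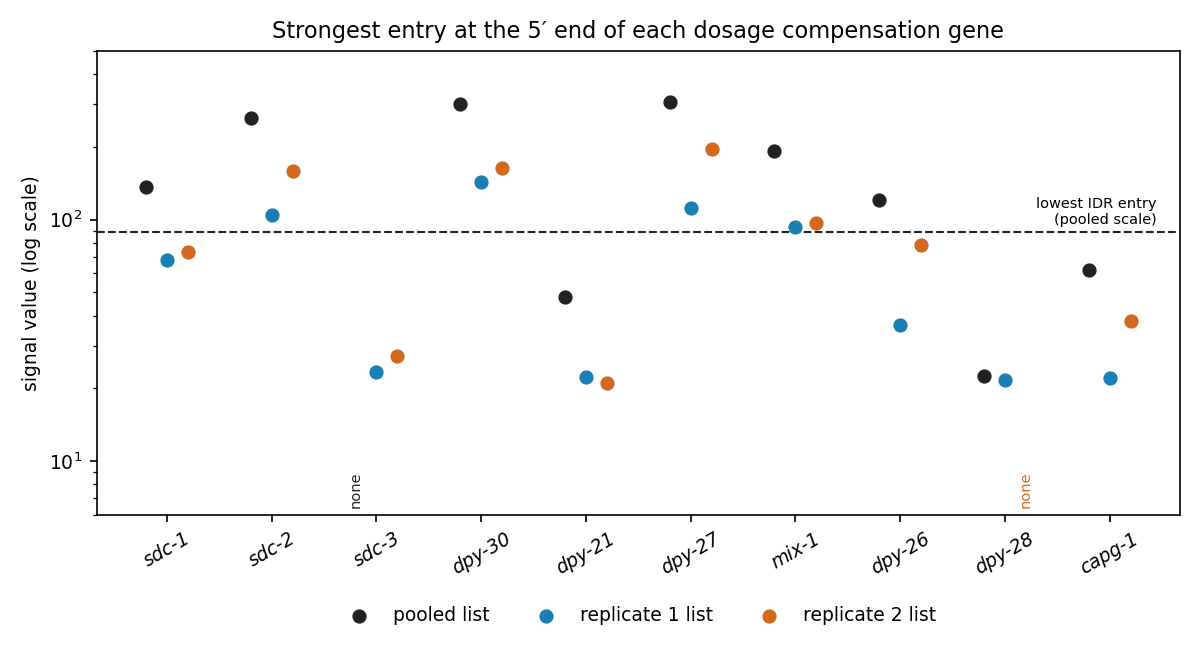
Signal value (log axis) of the strongest entry at the 5′ end of each gene in the pooled list (black), replicate 1 (blue) and replicate 2 (orange), with "none" where a list had no entry; the dashed line is the lowest IDR entry, 88.4 on the pooled scale. All 6 genes with an IDR entry lie above the line in the pooled list, and dpy-21, dpy-28 and capg-1 lie below it. This split is fixed in advance, because the IDR list holds exactly the pooled entries at or above the line. Heights can be compared within a colour only, and the line applies to the black points.

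Among the recruiting proteins, sdc-2 (WBGene00004746, chromosome X, 11522707 to 11533450, plus strand) had its IDR peak from 11522161 to 11522375. The signal value was 263.1, at rank 1327 of 4087, with the summit at -453 bp from the 5′ end. In replicate 1 the peak had a value of 104 and in replicate 2 a value of 159.4, with summits 6 bp apart. The peak lay in intergenic DNA, and the nearest upstream protein-coding gene, hpo-34, is on the opposite strand with a gap of 3640 bp. It was the single pooled entry from 1000 bp upstream of sdc-2 to its end.

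sdc-1 (WBGene00004745, chromosome X, 16275763 to 16282534, plus strand) had a weaker peak, from 16275223 to 16275622, with a signal value of 137 at rank 2678. The summit was at -340 bp and again intergenic. Upstream of it lie an annotated noncoding RNA on the opposite strand, F52E10.8, and a tRNA gene on the same strand. The summit was at -858 bp from the 5′ end of F52E10.8 and at 925 bp from that of the tRNA gene. The replicates had values of 68.1 and 73.2, with summits 12 bp apart. Both sdc-1 and sdc-2 lie on the X, where 14.6% of 2731 protein-coding genes had an IDR peak at a 5′ end.

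dpy-30 (WBGene00001088, chromosome V, 12191519 to 12192385, plus strand) is the shortest of the 10 at 867 bp and had the second highest value at a 5′ end. Its IDR peak, from 12191041 to 12191251, had a signal value of 302.1 at rank 1104 with the summit at -378 bp. The replicates had 142.4 and 163.9, with summits 1 bp apart. rnp-1 begins within the 3′ part of dpy-30 on the same strand, with its 5′ end at 754 bp, and the only other pooled entry, of 27.7, had its summit at 759 bp. An annotated noncoding RNA, ZK863.11, lies on the same strand upstream, with the summit at 441 bp from its 5′ end.

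sdc-3 (WBGene00004747, chromosome V, 15039148 to 15048207, minus strand), whose zinc finger protein acts with SDC-2 on the X, stood apart from both other sdc genes. It had no IDR peak, and no entry of the 30000 in the pooled list from 1000 bp upstream to its end. Among protein-coding genes of 5000 bp or longer, 21.9% had no pooled entry in that window. Each replicate list did have a candidate at the 5′ end. Replicate 1 had a value of 23.3 with a -log10 q of 2.74 at -108 bp. Replicate 2 had 27.2 with a -log10 q of 2.32 at 22 bp. Both values were above those of dpy-21 in the same lists (22.17 and 20.95), yet dpy-21 had a pooled 5′ entry of 47.6. Why the pooled list held none at sdc-3 was not tested. The sdc-3 summits were 130 bp apart. Over matched IDR entries the 95th percentile was 77 bp, but those were paired by nearness to an IDR summit. The sdc-3 candidates had no such summit, so the distances are not like for like. The nearest IDR summit was at -11573 bp, a distance close to the median of 12519 bp (quartiles 5526 and 26968.8) for the 16794 genes with no IDR peak at a 5′ end.

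Of the 5 condensin genes, dpy-27, mix-1 and dpy-26 had an IDR peak at the 5′ end, and dpy-28 and capg-1 had none. dpy-27 (WBGene00001086, chromosome III, 3813018 to 3819679, minus strand), the SMC4 subunit particular to the dosage compensation condensin, had the highest value of the 10 genes at a 5′ end. The peak, from 3820255 to 3820472, had a signal value of 307.6 at rank 1079, with the summit at -677 bp. That is the farthest summit from a 5′ end among the 6. The replicates had 111.8 and 195.5, with summits 1 bp apart. A short noncoding RNA, R13G10.5, lies between the summit and dpy-27 on the same strand, and the summit was at -83 bp from its 5′ end. Whether the peak goes with one or the other was not tested.

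mix-1 (WBGene00003367, chromosome II, 10824246 to 10841424, plus strand) encodes the SMC2 subunit shared by the condensins, and at 17179 bp it is longer than 98.5% of protein-coding genes. Its 5′ peak, from 10824159 to 10824326, had a signal value of 192.7 at rank 1953, with the summit at 1 bp. It was the only one of the 6 centred on the annotated 5′ end. The replicates had 93.1 and 97, with summits 5 bp apart. The same peak lay in the window of R06F6.12, a divergent gene 164 bp away, at -166 bp. It counts for both genes, and mix-1 has the nearer 5′ end.

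dpy-26 (WBGene00001085, chromosome IV, 12445801 to 12451335, minus strand) encodes the kleisin that closes the condensin ring, and had the weakest of the 6 peaks. The peak, from 12451215 to 12451614, had a signal value of 120.6 at rank 3046 with the summit at -80 bp. Replicate 1 had 36.7 and replicate 2 had 78.5, with summits 17 bp apart. Its log2 ratio of replicate 2 to replicate 1 was 1.10, the highest of the 6, against a median of 0.44 (SD 0.49) over the 4077 IDR entries matched in both lists. In replicate 1 alone the peak ranked 4339 and so fell below the 4087 strongest entries.

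**Figure D2:**
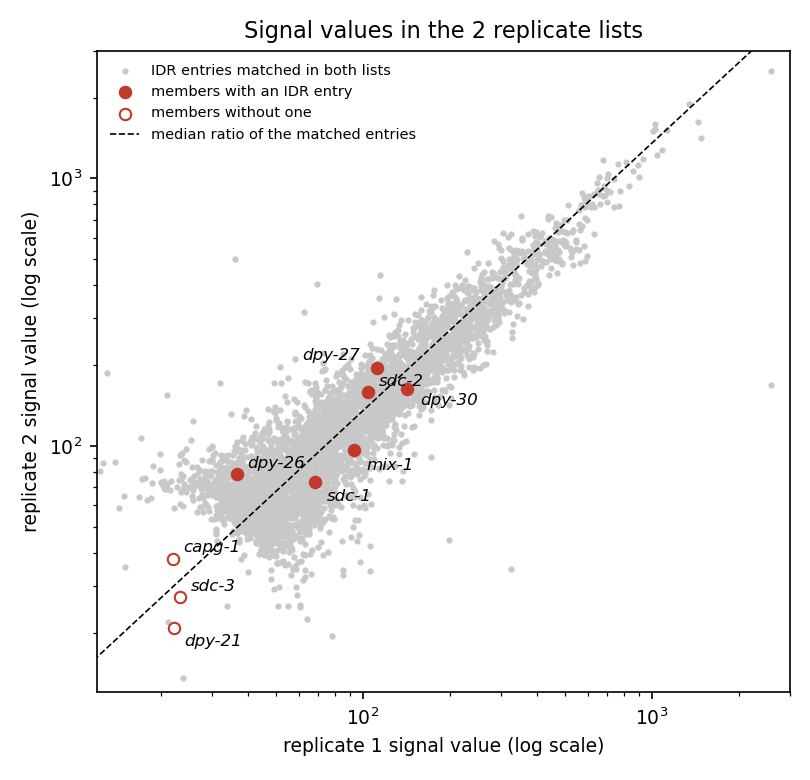
Signal value in replicate 1 against replicate 2 (both log axes) for IDR entries matched in both lists (grey), for the 6 genes with an IDR entry (filled red) and for the 3 genes without one that had a candidate in both lists (open red); the dashed line is the median ratio. The filled points lie among the grey ones with log2 ratios from 0.06 to 1.10, and the open points lie at the lower left. The filled points are themselves IDR entries, a list cut on pooled signal, so this placement is in large part fixed in advance.

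The other log2 ratios were 0.06 at mix-1, 0.10 at sdc-1, 0.20 at dpy-30, 0.62 at sdc-2 and 0.81 at dpy-27. All 6 fell between the 5th percentile of -0.27 and the 95th percentile of 1.27 of the matched entries, which include these 6. Summits of the 6 in the replicates were 1 to 17 bp apart, against a median of 14 bp over the matched entries. When the 4087 strongest entries of 1 replicate were used in place of the IDR list, replicate 1 gave 5 of the 10 genes (15.6% of all genes) and replicate 2 gave 6 (15.8%).

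dpy-28 (WBGene00001087, chromosome III, 10763131 to 10777076, plus strand), a HEAT-repeat subunit, had the least signal at its 5′ end among the genes with a pooled entry there. Its strongest pooled entry had a value of 22.5 at rank 17965 of 30000, with a -log10 q of 0.517 and a summit at -762 bp. That summit lies in a coding exon of tasp-1, the next gene upstream on the same strand, which ends 109 bp before dpy-28 begins. Replicate 1 had a candidate of 21.6 at -814 bp and replicate 2 had none at the 5′ end. None of the 6 pooled entries across the gene was overlapped in both replicate lists. At the far side of tasp-1, at -3878 bp from dpy-28, was one of the strongest IDR peaks of the genome, with a signal value of 2545.8 at rank 7. Its summit was at -54 bp from the nearest 5′ end of tasp-1, which encodes a threonine aspartase, and at -731 bp from that of K01G5.10. Whether tasp-1 and dpy-28 share a transcript is not given in the files.

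capg-1 (WBGene00009254, minus strand, 5294 bp long), the other HEAT-repeat subunit, was the nearest of the uncalled genes to the IDR list. Its pooled entry at -238 bp had a value of 61.5 at rank 5719 and a -log10 q at the pooled list's ceiling of 4.09. The lowest IDR entry had a value of 88.4. Replicate 1 had 22.0 at -216 bp and replicate 2 had 38.0 at -269 bp, with summits 53 bp apart. F26A3.1 lies upstream on the same strand with a gap of 562 bp. The nearest IDR summit was at -16988 bp.

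dpy-21 (WBGene00001080, chromosome V, 17936282 to 17949193, minus strand), the demethylase gene, also had a 5′ candidate below the IDR list. Its pooled entry at -524 bp had a value of 47.6 at rank 7310, with a -log10 q of 2.65. Replicate 1 had 22.17 and replicate 2 had 20.95, with summits 1 bp apart. A strong IDR peak, of 629 at rank 318, lay at -2238 bp from dpy-21. It counted in the window of the divergent gene Y59A8B.24, with the summit at -518 bp. dpy-21 held 9 pooled entries from 1000 bp upstream to its end (9.37% of long genes held as many or more). The 8 outside the 5′ end had values of 15.1 to 20.0, near the list's lowest value of 14.9.

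**Figure D3:**
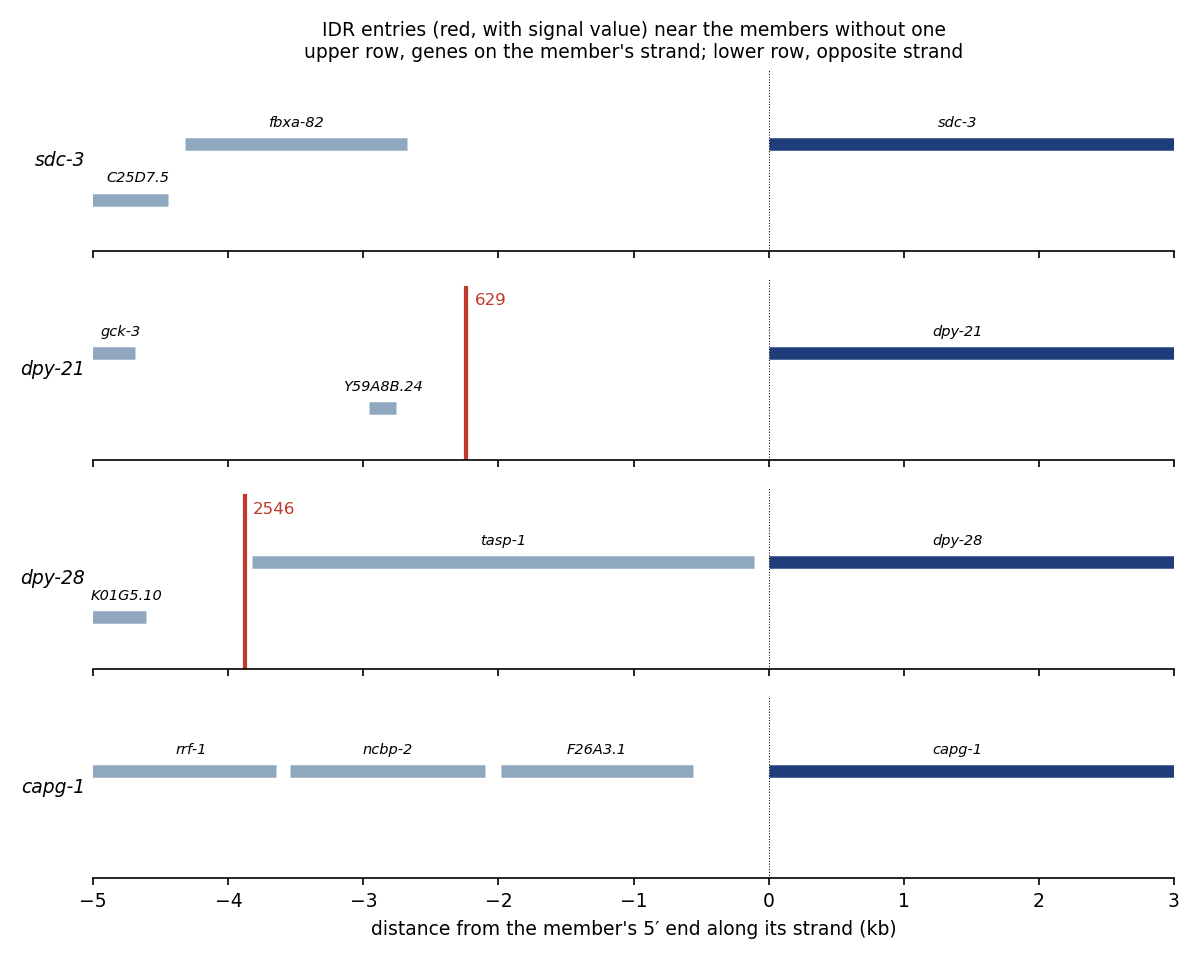
Protein-coding genes (bars; upper row, the strand of the gene named at left, lower row, the opposite strand) and IDR entries (red lines with signal value) from 5 kb upstream to 3 kb downstream of the 5′ ends of the 4 genes without an IDR peak. Only dpy-21 and dpy-28 have an IDR entry in view, of 629 and 2546, each in the 5′ window of a neighbour.

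Counted with weaker evidence, 9 of the 10 genes had a pooled candidate at a 5′ end (45.9% of all genes), sdc-3 being the exception. Likewise 9 had a candidate in both replicate lists (36.7%), dpy-28 being the exception. These lists hold background as well as peaks, so such a candidate is weaker evidence than an IDR entry. Among the strongest 2043 entries of the IDR list, 4 genes remained with a 5′ peak, namely dpy-27, dpy-30, sdc-2 and mix-1 (9.56% of all genes).

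With a window of 300 bp on each side of a 5′ end, only dpy-26 and mix-1 kept an IDR peak (10.1% of all genes), since the other 4 summits lay between -340 and -677 bp. The same 2 were left for whole genes with 300 bp upstream, where the share of all genes was 12.5%. With 2000 bp upstream of a 5′ end the 10 genes still had 6 (20% of all genes), and with overlap of the window by 1 bp in place of the summit they had 6 (16.7%). Giving each summit to the nearest protein-coding 5′ end alone left all 6 (11.9% of all genes). Noncoding genes were left out of that rule. The dpy-27 summit was nearer the 5′ end of the noncoding R13G10.5 (-83 bp) than that of dpy-27 (-677 bp). Annotated 5′ ends of C. elegans genes are often trans-splice sites, so the start of transcription can lie farther upstream. Whether that holds for the 4 genes lost with the 300 bp window was not tested.

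Of the 10 genes, 9 are at least 5000 bp long, where the median protein-coding gene is 2027 bp. From 1000 bp upstream to the gene's end, the same 6 genes had an IDR peak, against 17.5% of all genes. Among genes of 5000 bp or longer, 5 of 9 had one, against 30.4%.

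**Figure D4:**
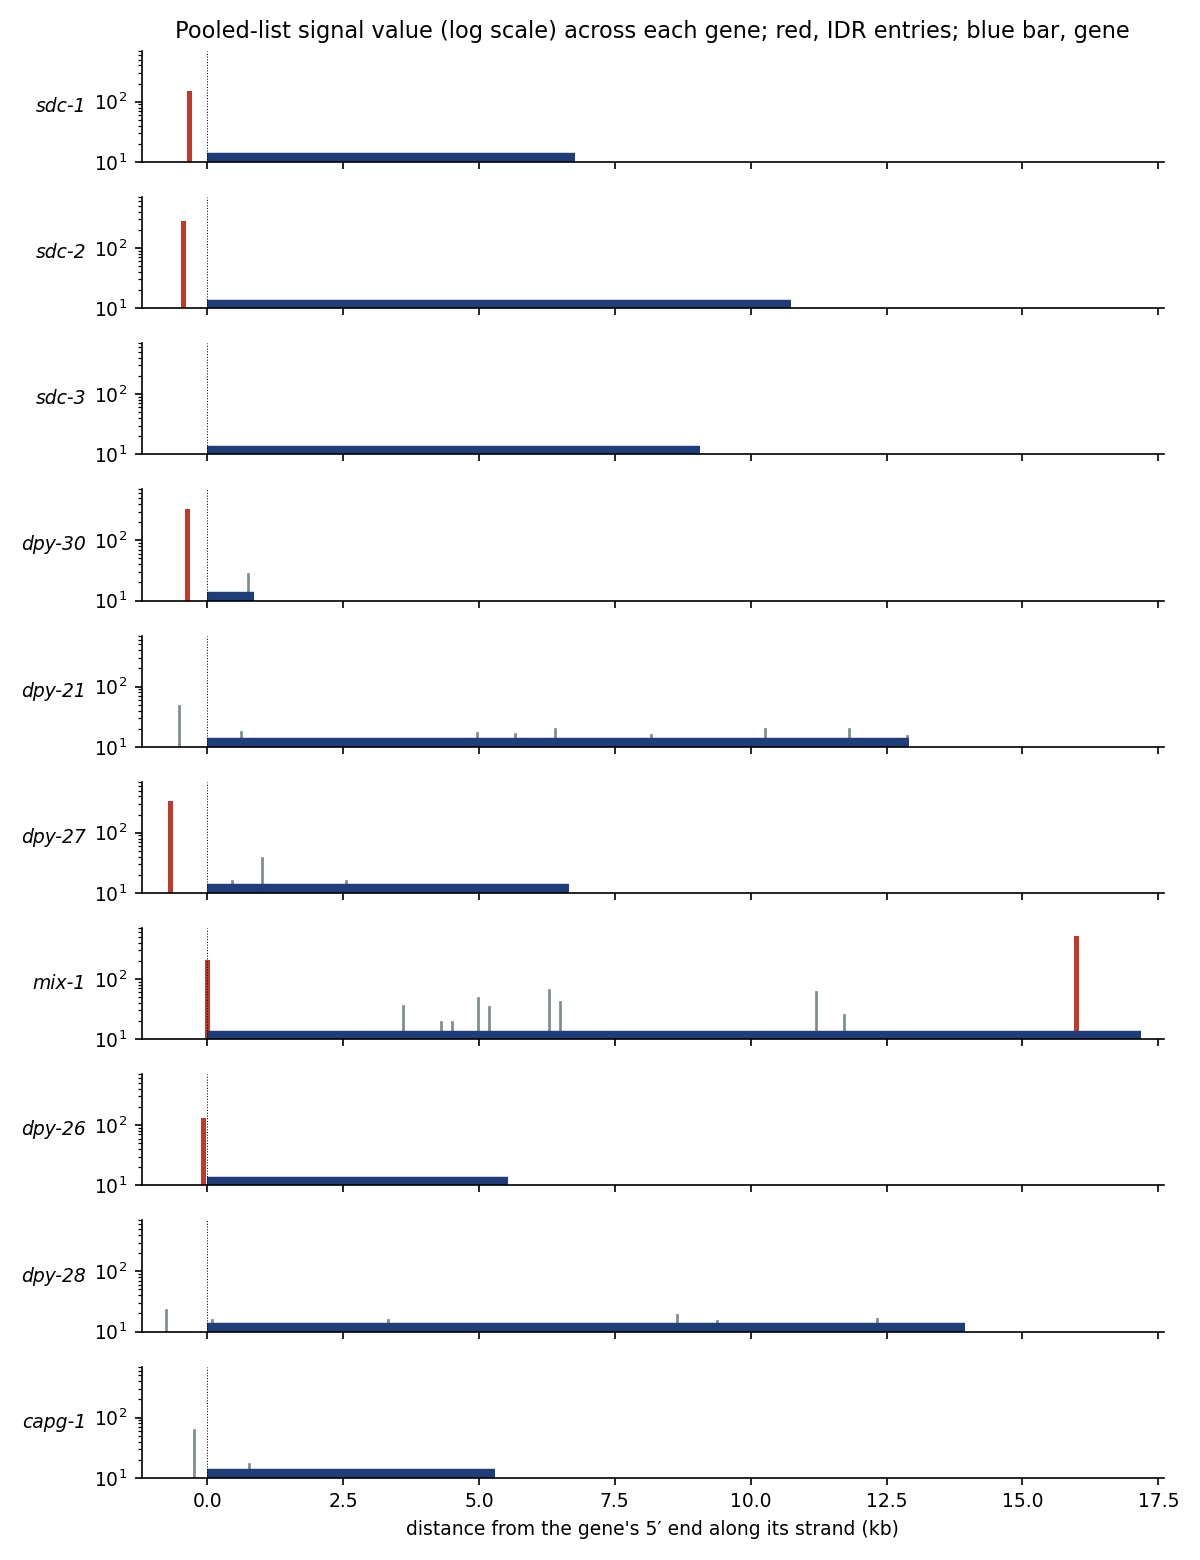
Entries of the pooled list by distance from the gene's 5′ end (kb, horizontal) and signal value (log axis, vertical) for each of the 10 genes; red lines are IDR entries, grey lines other candidates, and the blue bar the gene. Each of 6 genes has a red line near 0, and mix-1 alone has one inside the gene, at 15995 bp.

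One gene had an IDR peak away from its 5′ end. In mix-1, a peak from 10840115 to 10840366 had its summit 15995 bp into the gene, near its far end. Its signal value of 474.3, at rank 562, was 2.46 times that of the 5′ peak. The replicates had 227.3 and 241.8, which were 2.44 and 2.49 times their own 5′ values. Such a peak outside a gene's own 5′ windows was found for 2.54% of all genes and for 10.5% of genes of 5000 bp or longer (1 of the 9 long genes here). The summit lay in coding exon 13 of 15 (10840117 to 10840242), 1 base before the exon's end. Of the IDR summits, 52 (1.27%) lay in coding exons, with a median of 118.2, and 4 of them had a higher value than this one.

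The summit was 76 bp upstream of M106.6, a small nucleolar RNA gene (10840317 to 10840391, plus strand) in the following intron. The 200 bases around it (chrII:10840141-10840340, plus strand, 51.5% GC) are shown because they hold the strongest signal in any of the 10 genes, a choice made after its value was seen. Capitals mark the letters GGTTCGANNCC, the B box of promoters read by RNA polymerase III, which were looked for after this sequence had been seen.
mix-1 interior: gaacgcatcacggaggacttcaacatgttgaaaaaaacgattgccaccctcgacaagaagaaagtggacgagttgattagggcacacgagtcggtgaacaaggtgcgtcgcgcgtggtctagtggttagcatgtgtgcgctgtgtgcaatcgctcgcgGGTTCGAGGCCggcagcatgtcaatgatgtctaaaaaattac
The match lay at 10840299 to 10840309, 58 bases past the summit, and ended 8 bases before M106.6. The same letters were in 138 IDR windows (3.38%), of which 125 lay on an annotated tRNA gene and 13 did not. They were in 0.0990% of the windows upstream of protein-coding 5′ ends and in 64.4% of 612 annotated tRNA genes. None of the 5′ windows of the 6 genes held them, and this window held no GAGAG. Transcription of M106.6 was not measured here.

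mix-1 also held the most candidates of the 10 genes, with 11 pooled entries, and 6.59% of genes of 5000 bp or longer held as many or more. It is also the longest of the 10, and per kb of window its 0.605 entries were fewer than the 1.07 of dpy-30 and the 0.647 of dpy-21. Of the 11, 9 were overlapped in both replicate lists. The 9 that were not IDR entries had values of 19.0 to 66.0. A nested gene on the opposite strand, VM106R.1, has its 5′ end at 4935 bp, and a candidate of 47.5 had its summit at 4981 bp. In contrast, sdc-1, sdc-2 and dpy-26 each held a single pooled entry, the one at the 5′ end. The median long gene held 2.

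The genes that work beside the complex were counted in the same way, each list against the 15.9% of all protein-coding genes. Of the 4 condensin subunits outside the complex, 3 (75%) had an IDR peak at a 5′ end. They were hcp-6 (signal value 576.9), kle-2 (283.6) and smc-4 (239.7), and capg-2 had none. SMC-4 is the partner that DPY-27 replaces, and both genes had a peak, but the summit at smc-4 was nearer the 5′ end of another gene. With each summit given to the nearest protein-coding 5′ end, the condensin list fell to 1 of 4, where 11.9% of all genes were called. Only hcp-6 was left, and kle-2 and smc-4 were lost. Of 12 genes of cohesin and its loaders, the related rings that hold sister chromatids together, 8 (66.7%) had one. The strongest were wapl-1 (992.1), which encodes the factor that releases cohesin, scc-2 (969.4), its loader, smc-3 (383.9) and evl-14 (351.5). The 4 without a peak were him-1, rec-8, coh-3 and coh-4, named here after their values were seen; rec-8, coh-3 and coh-4 encode kleisins of meiosis. By the nearest protein-coding 5′ end alone, the cohesin list had 5 of 12, and smc-3 and evl-14 were among the genes lost.

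Of 8 SET1/MLL partners of DPY-30, 5 (62.5%) had a peak. set-16, an MLL-type methyltransferase gene, had a signal value of 1550.7, ash-2 had 492.6, rbbp-5 had 221.2 and set-2, the SET1 gene, had 199.4. The fifth was utx-1, and wdr-5.1, cfp-1 and pis-1 had none. By the nearest protein-coding 5′ end alone, 3 of the 8 were called (11.9% of all genes). The summits at rbbp-5 and at set-16, the strongest of the list, were nearer the 5′ end of another gene. Of 16 genes of the X signal and sex determination, 3 (18.8%) had a peak, close to the share of all genes. They were ceh-39 (228.3), an X signal gene, fem-2 (192.6) and fem-1 (122.9). From 1000 bp upstream to the gene's end, 5 of the 16 had an IDR peak, with sea-2 and tra-1 added (17.5% of all genes). xol-1, the switch gene that keeps sdc-2 off in males, and her-1, which SDC proteins repress, had none. Of 5 genes of histone methylation and anchoring acting on the X, 1 (20%) had a peak, set-4 (906.5), which encodes the methyltransferase whose product DPY-21 reverses. set-1, cec-4, met-2 and set-25 had none. With 2000 bp upstream, set-1 and cec-4 were added, which made 3 of 5 (20% of all genes).

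**Figure D5:**
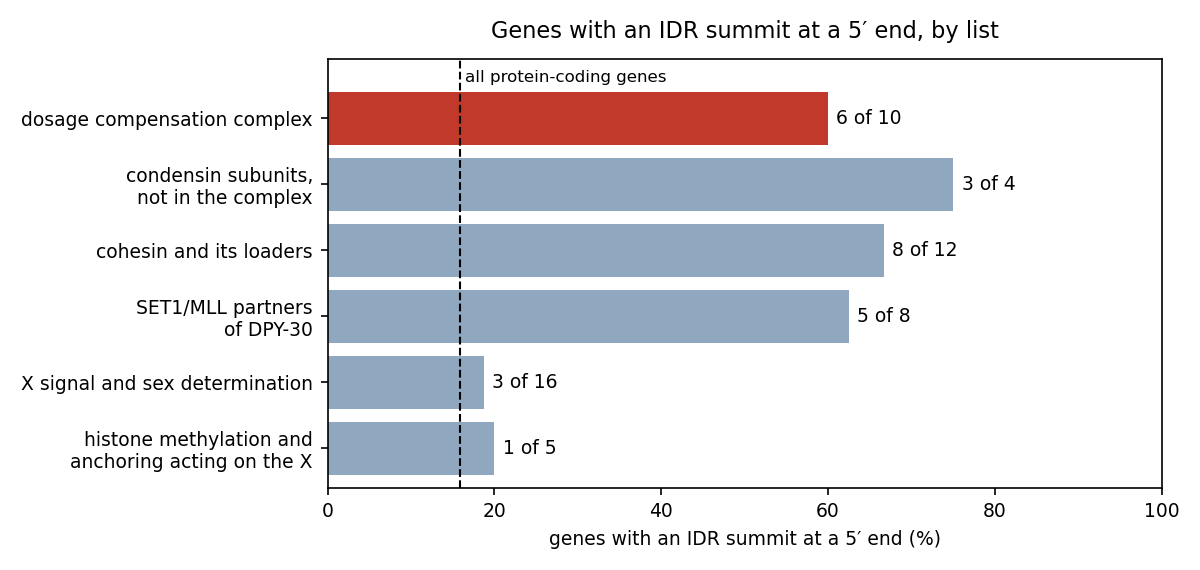
Share of genes (percent, horizontal) with an IDR summit at a 5′ end in the dosage compensation complex (red) and in 5 related lists (blue), with counts beside the bars; the dashed line is the 15.9% of all protein-coding genes. The complex, condensin, cohesin and SET1/MLL lists lie at 60% to 75%, and the other lists at 18.8% and 20%. With the nearest protein-coding 5′ end alone, the complex kept 6 of 10 and the condensin list 1 of 4. The cohesin list kept 5 of 12 and the SET1/MLL list 3 of 8. The share of all genes was then 11.9%, which is not drawn.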

How the data were processed

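According to the deposited readme, reads were mapped by the authors to ce10 and ce11, candidate lists holding peaks and background were made per replicate and from both together (pooled), and the IDR list was derived from these. The aligner, caller and versions were not given in the sources used here. Deposited lists give a signal value, a −log10 q-value and a summit for each region. All 4087 IDR entries shared the −log10 q ceiling, so signal values were used to rank, and they are the authors'. The IDR list holds exactly the pooled entries at or above its lowest signal. Each candidate list has 30000 entries. Read depth is unknown, and control data were not used here. The labels name swsn-7 as antibody, read as the target.

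Summits were placed in windows around genes of Ensembl release 115 on ce11 (WBcel235), in 1-based coordinates, with Python 3.11.15 and pandas 2.3.3. A gene was called when an IDR summit lay from 1000 bp upstream to 500 bp downstream of a protein-coding 5′ end. The window calls were tested on simulated data. Of list genes, 2 were looked up under their current names (him-1 and scc-2). Replicates, whose files shared no identical entry, are biological per the labels, and nothing else states separate cultures.

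The text names all 10 genes, the genes sharing a member's peak, up to 4 called genes of each list by signal value and the uncalled genes of lists of up to 8. Other names were added after their values were seen. Members, lists and motifs were chosen with earlier results of these data known. Alternatives were other windows, nearest protein-coding 5′ end only, the strongest 2043 entries, 1 replicate at a time and overlap by 1 bp.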

Additional observations from a re-analysis of the deposited data

How the results depend on the processing

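The count of 6 of the 10 genes with an IDR peak at a 5′ end held with 2000 bp upstream (20% of all genes, against 15.9%). It also held with overlap by 1 bp (16.7%), with replicate 2 alone (15.8%) and with the nearest protein-coding 5′ end only (11.9%). The last rule left out noncoding genes such as R13G10.5, whose 5′ end is nearer the dpy-27 summit than that of dpy-27. The count was 5 with replicate 1 alone (15.6%), where dpy-26 was lost, and 4 with the strongest 2043 entries (9.56%). It fell to 2 with 300 bp on each side (10.1%), and to 2 for whole genes with 300 bp upstream (12.5%). With the nearest protein-coding 5′ end only, the condensin list had 1 called gene, the cohesin list 5 and the SET1/MLL list 3. The histone methylation list had 3 of 5 with 2000 bp upstream (20% of all genes). Of the alternative counts, 41 stayed within 1.5 times the main count and 6 did not. By construction, a narrower window or the nearest 5′ end rule can only lower a count, and a wider window can only raise it. Why some lists moved more than others was not tested. Looking up 2 list genes under current names was chosen after seeing the data. No paired analysis was possible because there was 1 group. Unknown read depth limits what a missing peak shows.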
